A study of Homo sapiens with 12 samples.

Results

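The genes described here are 55 listed genes of mitosis and of the mitotic spindle, from the kinases and cyclins that start cell division to the condensins that pack the chromosomes. The members were the listed symbols that a probe-to-gene table of the array named. Of the 55, 44 were measured among 14884 named genes, each by a single probe set. NUF2, SPC25, CENPE, CENPF, ASPM, TPX2, DLGAP5, ANLN, UBE2C, NCAPG and NCAPH are not analysed here. The study treated HepG2 cells, an established line from a human liver tumour, with small interfering RNAs (siRNAs) against β-catenin, the protein that carries the Wnt signal to the nucleus. HepG2 cells lack exon 3 of the β-catenin gene on 1 allele, so that a truncated form that escapes degradation is made beside the full-length form. Total RNA of the cells was hybridised to 12 Affymetrix arrays, and the deposited values are log2 levels. The siRNA called si-WT targets the full-length form (3 arrays), si-mut the truncated form (3 arrays), si-both targets both forms (3 arrays), and siCtrl is a control siRNA (3 arrays). All 4 groups are the same cell line with the same allele loss, and all were taken at 120 h, so each difference is between siRNAs in cells that carry the truncated form.

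Cells divide by a fixed order of steps. CDK1 with its cyclins starts mitosis, kinesin motors and bundling proteins build the spindle, the checkpoint holds the cells until every kinetochore is attached, and the anaphase-promoting complex then releases the sister chromatids. Most of these genes are transcribed only as cells near division, through promoters read by NF-Y, B-MYB, FOXM1 and the MuvB complex, so their transcript levels in a culture follow how many of its cells are cycling.

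The 12 arrays were alike in their summary measures. Replicate arrays of a group correlated at 0.994 to 0.997 over all genes, no pair of arrays held identical values, and the median deviation of all genes from the siCtrl mean lay between -0.019 and 0.018 (log2) on every array. RMA, which made the deposited values, sets all arrays to 1 distribution, so small medians largely follow from it and are no test of likeness. Nothing in the labels tells whether the 3 samples of a group were grown apart, and every p-value here is against the spread of such samples, which could be technical in part. The transcript that the siRNAs target is not analysed here, so the groups rest on the labels. 4 genes known as β-catenin targets were set beside the labels instead. LGR5 stood at 11.38, 11.40 and 11.34 after si-WT, at 8.17, 6.57 and 6.02 after si-mut, at 9.10, 7.79 and 7.79 after si-both, and at 11.33, 11.41 and 11.49 in siCtrl cells. The first si-both array was also the highest of its group for NKD1 (8.27, against 6.96 and 7.35), AXIN2 (7.28, against 6.04 and 6.44) and MYC (7.08, against 6.66 and 6.58). That array stands apart for the mitosis genes too, as described below, and results that rest on it are given with and without it. NKD1 stood at 10.86, 10.88 and 10.88 after si-WT and at 10.405, 10.37 and 10.47 in siCtrl cells. AXIN2 stood at 10.05, 10.10 and 9.97 after si-WT and at 9.68, 9.50 and 9.65 in siCtrl cells. LGR5 and MYC overlapped between these groups, so none of the 4 targets shows whether si-WT lowered its target. Of 9 hepatocyte and liver tumour markers 7 were measured, with means of 9.34 (APOA1) to 13.25 (APOB) in siCtrl cells. The other lists held DCN at 3.06, 3 endothelial markers at 3.51 to 4.76, 5 markers of other epithelia at 4.21 to 5.81, and, of 3 leukocyte markers, CD14 at 5.47, CD68 at 10.03 and LYZ at 12.72 in siCtrl cells.

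Mitosis genes were lower across nearly the whole list after both siRNAs that reach the truncated form, and not after the siRNA against the full-length form alone. The median of the 44 changes was -0.52 after si-mut and -0.81 after si-both against siCtrl (log2), a 1.43-fold and a 1.75-fold lower level. After si-WT it was 0.10. The medians over all 14884 genes were 0.005 after si-WT, 0.011 after si-mut and -0.006 after si-both. In limma's test across all genes, with Benjamini-Hochberg adjustment and a call at an adjusted p under 0.05, 37 of the 44 were lower and 0 higher after si-mut, where 13.6% of all genes were called lower and 12% higher. After si-both 40 were lower and 0 higher, where 18.1% of all genes were lower and 15.5% higher. After si-WT 4 were higher and 0 lower, where 5.2% of all genes were higher and 4.97% lower. These 3 comparisons share the siCtrl arrays. In a bulk culture fewer cells in division and less of each transcript per dividing cell cannot be told apart.

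The direct comparisons of the knockdowns gave the same order. Against si-WT, 38 members were lower and 0 higher after si-mut (17% of all genes lower, 14% higher), with a median change of -0.61. Against si-WT, 39 were lower and 0 higher after si-both (20.1% lower, 16.1% higher), with a median of -0.85. Against si-mut, 19 were lower and 0 higher after si-both (11.6% lower, 10.6% higher), with a median of -0.27. Of these calls 33 of the 38, 39 of the 39 and 11 of the 19 were kept whichever of the 12 arrays was left out. BIRC5, BUB3, CDCA5, KIF20A and MKI67 lost the call of si-mut against si-WT at least once, and CDCA8, ECT2, KIF20B, KIF2C, MKI67, NDC80, NEK2 and PTTG1 that of si-both against si-mut. Of the calls against siCtrl, 34 of the 37 after si-mut and 38 of the 40 after si-both were kept each time, and the exceptions were BIRC5, CDC25B and CDCA5 after si-mut and CDC25B and KIF18A after si-both. None of the 4 calls after si-WT was kept each time.

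**Figure D1:**
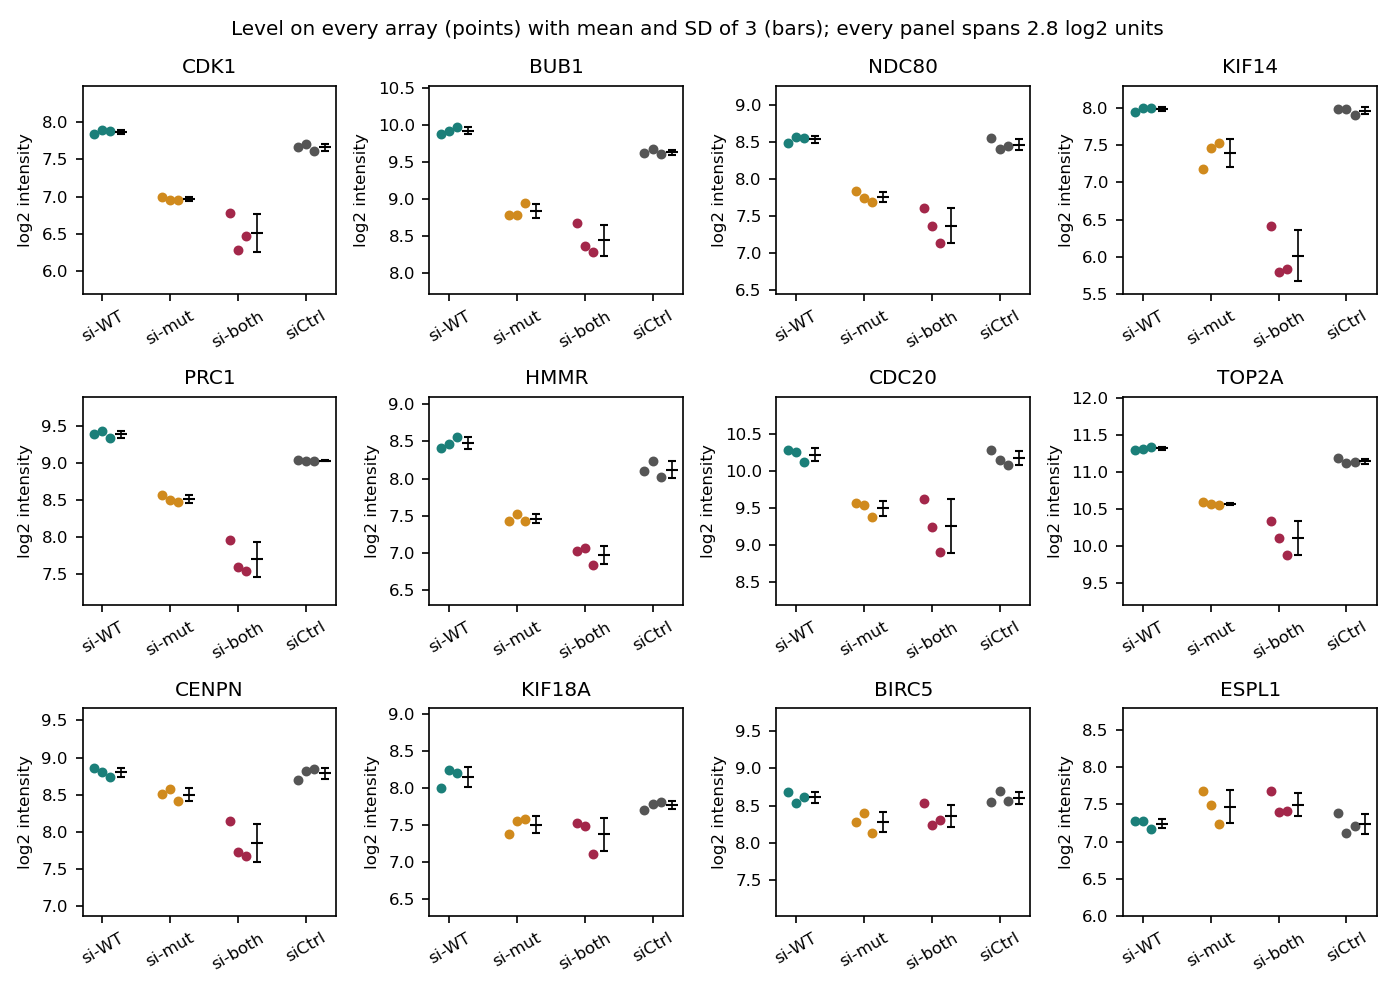
Log2 levels of 12 members named in the text on the 12 arrays, 1 point per array and a bar for each group's mean and SD (n = 3), with si-WT, si-mut, si-both and siCtrl from left to right. The si-mut and si-both points of KIF14, PRC1 and HMMR lie below the si-WT and siCtrl points, and the si-both points lie lowest.

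The shift ran through each array as well as through the group means. The median deviation of the 44 members from their siCtrl mean was 0.11, 0.11 and 0.08 on the 3 si-WT arrays, -0.50, -0.51 and -0.54 on the si-mut arrays, -0.55, -0.83 and -0.96 on the si-both arrays, and 0.02, -0.00 and -0.01 on the siCtrl arrays. On the si-mut arrays 43 of the 44 lay below their siCtrl mean, and on the si-both arrays 42, 43 and 43. The first si-both array was the highest of its group for 40 of the 44 members, and the third was the lowest for 32. Without the first si-both array the median change after si-both was -0.93 with 41 members lower, and without the third it was -0.69 with 38 lower. On the first si-both array the mitosis genes thus lay near the si-mut arrays, while LGR5, NKD1, AXIN2 and MYC were higher there than on the other si-both arrays. The first si-mut array was likewise the highest of its group for LGR5, NKD1 (7.71, against 6.53 and 6.43), AXIN2 (6.72, against 5.83 and 5.89) and MYC (6.99, against 6.91 and 6.81). Its median deviation of the mitosis genes, -0.50, lay near those of the other si-mut arrays. The part of the target levels in the mitosis result was not tested.

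**Figure D2:**
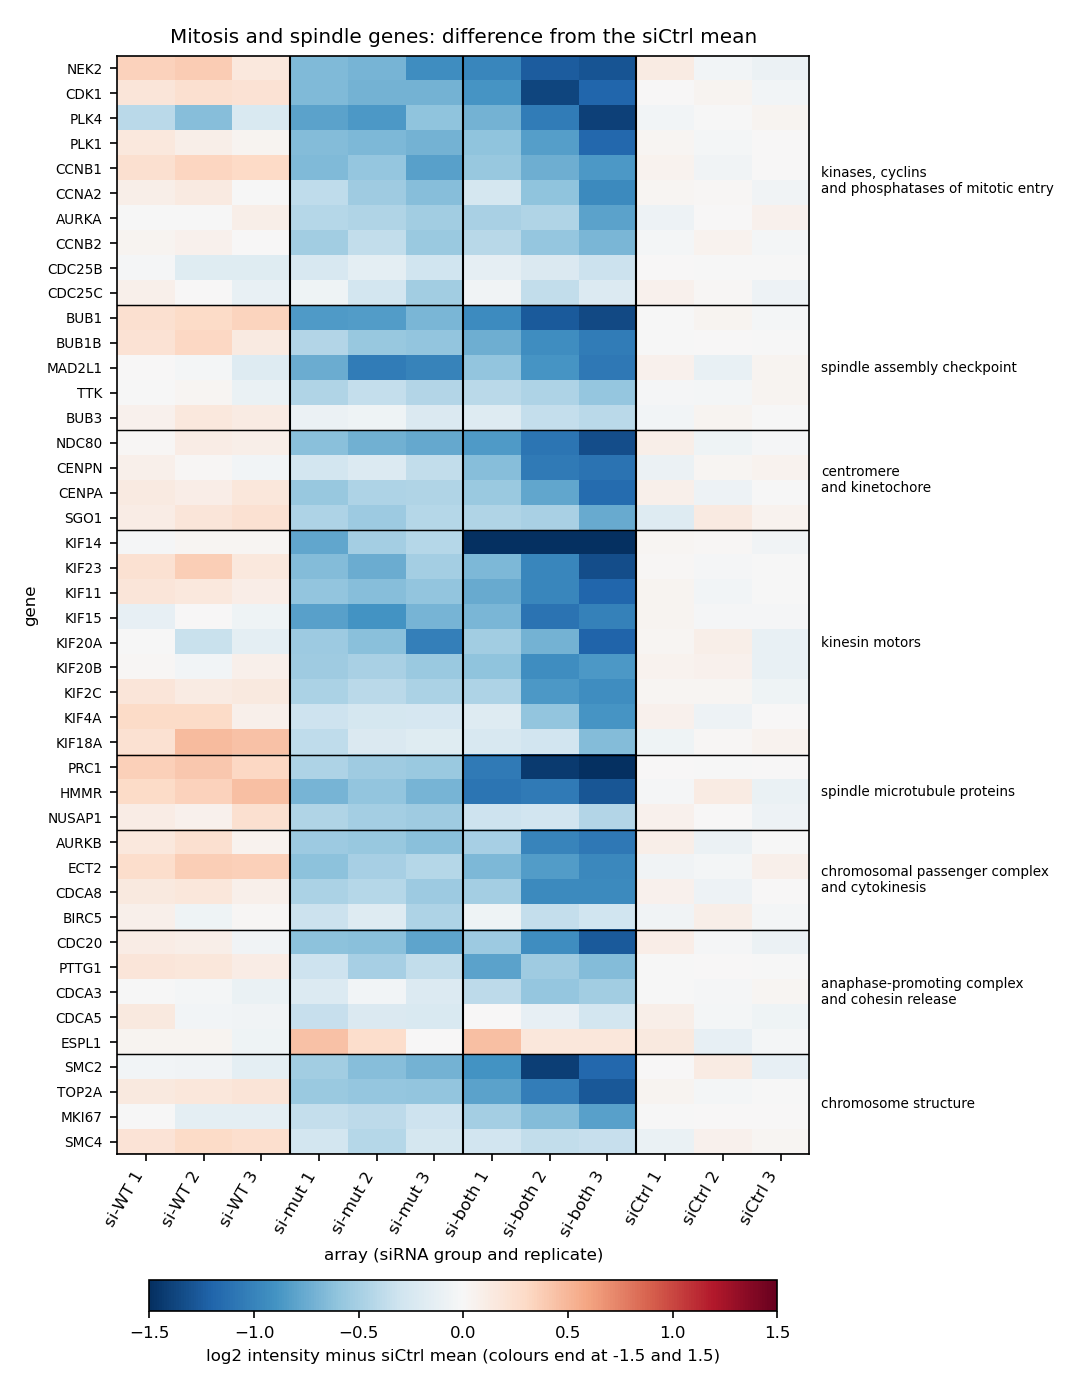
Deviation of each of the 44 members from its siCtrl mean (log2, colour) on each of the 12 arrays, rows grouped by role and columns in the order si-WT, si-mut, si-both and siCtrl. Almost every row is blue on the si-mut and si-both arrays, ESPL1 is the exception, and the first si-both column is paler than the other two.

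The members' signals ranged from a mean over all arrays of 5.48 (PTTG1) to 11.30 (PLK1), and since probe sets differ in how well they bind, these values do not rank the transcripts by abundance. The median standard deviation of the members within a group was 0.085, against 0.10 for all genes. The median correlation between pairs of members was 0.90 over the 12 arrays and 0.56 when group means were removed (946 pairs), as a description over arrays that the genes share.

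The promoters were searched for letters known from mitosis genes. RefSeq windows of GRCh38.p14, from 250 bases before to 50 after a gene's start, were given for 40 of the 44 members and 10749 genes of the array table. Where a gene had several windows (9 members) the first was read. Each motif was searched on both strands and separately, so sites of different motifs may overlap. CCAAT, the letters of the NF-Y box, was in 30 of the 40 windows (75%), against 36% of all windows. TTTGAA, the letters of the cell cycle genes homology region (CHR) that MuvB complexes read, was in 28 (70%), against 11.8% of all windows. Both were in 22 (55%), against 4.86%. The GC box GGGCGG was in 30 (75%, against 60.5%), the E-box CACGTG in 3 (7.5%, against 9.02%), the E2F letters TTTGGCGC in 2 (5%, against 0.874%) and TTTCGCGC in 1 (2.5%, against 0.763%). CTTTGAT, letters bound by the TCF factors that β-catenin joins, was in 0 of the 40, against 1.92% of all windows. CTTTGAT and TTTGAA differ in their last letter, so a match to one is no match to the other. A match is a description of letters and not of binding, and no match says only that the letters are not in this window. With any window of a gene counted, CCAAT was in 33 of the 40 (82.5%, against 41.4%) and TTTGAA in 29 (72.5%, against 15.3%).

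**Figure D3:**
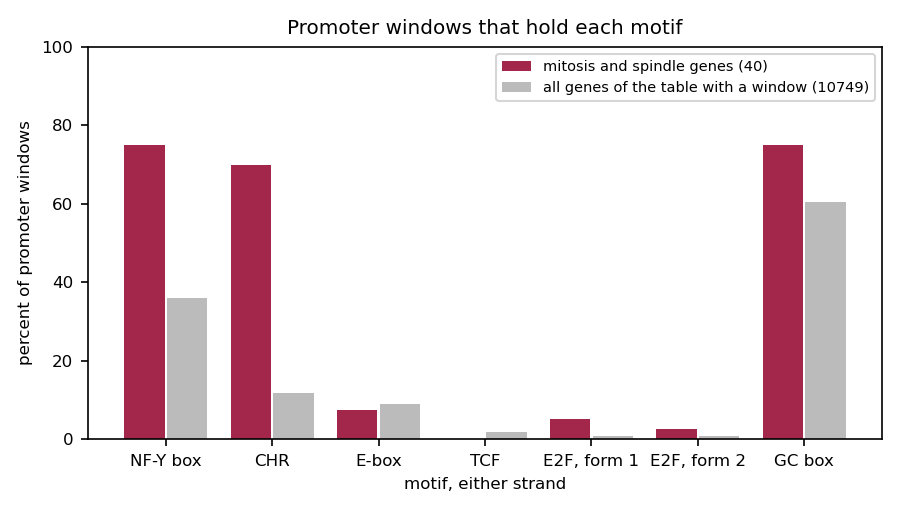
Share of promoter windows (percent) that hold each motif on either strand, for the 40 members with a window and for the 10749 genes of the array table with one. CCAAT and TTTGAA stand out, at 75% and 70% of the members against 36% and 11.8% of all genes.

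The promoter stretches of 8 members are shown. In each role this is the member of largest si-both change among those that hold both motifs. NEK2, BUB1, NDC80, AURKB and SMC2 have the largest si-both change of their roles. They hold CCAAT or TTTGAA but not both, so their windows are not shown. Capitals mark CCAAT or its reverse complement ATTGG, and TTTGAA or its reverse complement TTCAAA. Each stretch is 5′ to 3′ on the gene's strand, from RefSeq on GRCh38.p14, with up to 10 bases on either side of the outermost motifs and none beyond 30 bases after the start, where the MAD2L1 and ECT2 stretches end.
KIF14 (chr1:200620735-200620783, minus strand): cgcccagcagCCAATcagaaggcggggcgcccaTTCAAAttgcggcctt
PRC1 (chr15:90994540-90994598, minus strand): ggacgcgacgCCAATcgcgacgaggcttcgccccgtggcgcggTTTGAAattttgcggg
CDK1 (chr10:60778160-60778195, plus strand): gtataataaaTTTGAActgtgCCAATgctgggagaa
TOP2A (chr17:40417935-40418146, minus strand): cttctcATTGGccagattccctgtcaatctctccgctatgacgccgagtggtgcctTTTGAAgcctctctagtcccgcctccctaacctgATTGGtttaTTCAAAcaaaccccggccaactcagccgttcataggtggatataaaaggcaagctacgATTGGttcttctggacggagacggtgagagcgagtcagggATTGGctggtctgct
CENPN (chr16:81007198-81007232, plus strand): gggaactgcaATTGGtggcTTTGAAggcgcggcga
CDC20 (chr1:43358793-43358940, plus strand): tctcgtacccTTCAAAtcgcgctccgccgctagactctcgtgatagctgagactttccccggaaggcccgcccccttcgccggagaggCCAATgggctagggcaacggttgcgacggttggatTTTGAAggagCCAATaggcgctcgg
MAD2L1 (chr4:120066819-120067087, minus strand): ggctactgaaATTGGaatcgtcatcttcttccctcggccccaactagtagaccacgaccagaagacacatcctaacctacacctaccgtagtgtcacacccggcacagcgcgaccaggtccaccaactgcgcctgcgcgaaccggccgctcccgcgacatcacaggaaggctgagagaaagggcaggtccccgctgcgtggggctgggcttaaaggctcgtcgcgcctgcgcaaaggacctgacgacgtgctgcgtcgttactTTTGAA
ECT2 (chr3:172750601-172750755, plus strand): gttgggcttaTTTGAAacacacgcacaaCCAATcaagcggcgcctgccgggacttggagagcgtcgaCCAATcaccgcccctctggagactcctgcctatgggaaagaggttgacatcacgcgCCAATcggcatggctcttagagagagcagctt
TOP2A held 4 CCAAT boxes and ECT2 held 3, while KIF14, PRC1, CDK1 and CENPN held 1 of each motif within a short stretch. ECT2 has another TTTGAA after the end of the stretch shown. The members' changes are given by motif as a description, with no test. The median change after si-both was -0.84 in the 22 members with both motifs and -0.78 in the 18 without that pair, and -0.89 in the 28 with TTTGAA and -0.69 in the 12 without it. For CCAAT it was -0.83 in the 30 with it and -0.83 in the 10 without it. For GGGCGG the order was the other way, at -0.81 in the 30 with it and -0.88 in the 10 without it.

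Among the kinases, cyclins and phosphatases of mitotic entry, 9 of 10 were lower after si-mut (median -0.60) and 9 of 10 after si-both (median -0.67). For this role and those below, 13.6% of all genes were called lower after si-mut and 18.1% after si-both. NEK2, a kinase that parts the centrosomes, moved furthest. It stood at 8.73, 8.77 and 8.54 after si-WT, 7.71, 7.68 and 7.45 after si-mut, 7.40, 7.14 and 7.08 after si-both, and 8.51, 8.34 and 8.30 in siCtrl cells. Each si-mut array lay below each siCtrl array, and each si-both array below each si-mut array. NEK2 changed by -0.76 ± 0.11 (SE) after si-mut (adjusted p = 0.000126) and by -1.17 ± 0.11 after si-both (adjusted p = 1.7e-06), a 2.25-fold lower level. CDK1, the kinase that drives mitosis and whose promoter stretch is shown above, had 7.85, 7.90 and 7.88 after si-WT, 7.0, 6.95 and 6.95 after si-mut, 6.78, 6.28 and 6.47 after si-both, and 7.67, 7.71 and 7.62 in siCtrl cells. Its changes were -0.70 ± 0.10 after si-mut (adjusted p = 0.000172) and -1.15 ± 0.10 after si-both (adjusted p = 1.25e-06), and again the si-both arrays lay below the si-mut arrays. Its cyclins had smaller changes: CCNB1 changed by -0.68 and -0.72, CCNB2 by -0.48 and -0.56, and CCNA2 by -0.52 and -0.61 after si-mut and si-both. PLK1, a kinase that acts from the centrosome to cytokinesis, changed by -0.68 and -0.87, and AURKA, the kinase of the spindle poles, by -0.47 and -0.58. PLK4, which licenses new centrioles, changed by -0.76 after si-mut and -1.05 after si-both. After si-WT its arrays also lay below those of siCtrl, by -0.42, which did not pass the test (adjusted p = 0.0946, and called without the first si-both array and in some other settings).

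The CDC25 phosphatases, which switch CDK1 on, moved least in that group. CDC25C had 7.26, 7.19 and 7.08 after si-WT, 7.12, 6.92 and 6.67 after si-mut, 7.13, 6.82 and 6.99 after si-both, and 7.26, 7.20 and 7.11 in siCtrl cells, with overlapping groups throughout. Its changes of -0.29 ± 0.11 after si-mut (adjusted p = 0.0811) and -0.21 ± 0.11 after si-both (adjusted p = 0.182) did not pass the test. The si-mut change was called without the first si-mut array, without dim genes, with the replicate number as a block and with array weights. Both changes were called with the first si-mut and si-both arrays left out together. CDC25B changed by -0.23 after si-mut (adjusted p = 0.044) and -0.22 after si-both (adjusted p = 0.0392), and each of these calls was lost when any of several single arrays was left out.

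In the spindle assembly checkpoint, 4 of 5 members were lower after si-mut (median -0.54) and 5 of 5 after si-both (median -0.85). BUB1, the kinase that recruits the checkpoint to kinetochores, stood at 9.87, 9.91 and 9.96 after si-WT, 8.78, 8.79 and 8.95 after si-mut, 8.68, 8.37 and 8.28 after si-both, and 9.62, 9.67 and 9.60 in siCtrl cells. The 4 groups did not overlap, with si-WT at the top and si-both at the bottom. BUB1 changed by -0.79 ± 0.10 after si-mut (adjusted p = 3.93e-05) and by -1.19 ± 0.10 after si-both (adjusted p = 6.49e-07). Its difference of 0.29 ± 0.10 after si-WT did not pass the test (adjusted p = 0.0801, and called without the first si-both array and in some other settings). BUB3, which carries BUB1 and BUB1B to the kinetochore, moved least. It had 10.51, 10.61 and 10.57 after si-WT, 10.37, 10.39 and 10.24 after si-mut, 10.26, 10.10 and 10.05 after si-both, and 10.42, 10.50 and 10.44 in siCtrl cells. The si-mut arrays lay just below those of siCtrl, with a difference of -0.12 ± 0.08 that did not pass the test (adjusted p = 0.293). After si-both it changed by -0.32 ± 0.08 (adjusted p = 0.00513). MAD2L1, the checkpoint protein that holds back CDC20, changed by -0.93 ± 0.12 after si-mut (adjusted p = 5.51e-05), the largest si-mut change of the 44, and by -0.85 ± 0.12 after si-both. Its si-both arrays, at 7.16, 6.88 and 6.68, overlapped its si-mut arrays at 7.01, 6.71 and 6.76. BUB1B (BubR1) changed by -0.54 and -0.91 and TTK, the kinase that starts checkpoint signalling, by -0.42 and -0.48 after si-mut and si-both.

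At the centromere and kinetochore, 3 of 4 members were lower after si-mut (median -0.48) and 4 of 4 after si-both (median -0.88). NDC80, the microtubule-binding arm of the kinetochore, had 8.48, 8.57 and 8.55 after si-WT, 7.83, 7.74 and 7.69 after si-mut, 7.61, 7.37 and 7.13 after si-both, and 8.54, 8.40 and 8.44 in siCtrl cells. It changed by -0.71 ± 0.10 after si-mut (adjusted p = 0.000173) and by -1.09 ± 0.10 after si-both (adjusted p = 2.37e-06). CENPN, which reads the centromeric nucleosome, had another profile: 8.86, 8.80 and 8.74 after si-WT, 8.51, 8.58 and 8.41 after si-mut, 8.15, 7.72 and 7.68 after si-both, and 8.70, 8.82 and 8.84 in siCtrl cells. Most of its change came with si-both, at -0.94 ± 0.11 (adjusted p = 1.54e-05), beside -0.29 ± 0.11 after si-mut (adjusted p = 0.0747, and called without the first si-both array and in some other settings). SGO1, which guards centromeric cohesion, moved least of the 4 after si-both, with 8.76, 8.83 and 8.88 after si-WT, 8.19, 8.11 and 8.22 after si-mut, 8.20, 8.17 and 7.89 after si-both, and 8.46, 8.78 and 8.71 in siCtrl cells. Its 2 sets of knockdown arrays overlapped each other and lay below siCtrl, with changes of -0.48 ± 0.10 after si-mut (adjusted p = 0.00257) and -0.57 ± 0.10 after si-both (adjusted p = 0.000478). CENPA, the histone that marks the centromere, changed by -0.49 and -0.83.

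Among the kinesin motors, 7 of 9 were lower after si-mut (median -0.57) and 9 of 9 after si-both (median -0.81). KIF14, a motor of the midbody that is needed for cytokinesis, was the member furthest from siCtrl after si-both. It stood at 7.95, 8.0 and 8.0 after si-WT, 7.18, 7.46 and 7.54 after si-mut, 6.42, 5.80 and 5.83 after si-both, and 8.0, 7.99 and 7.91 in siCtrl cells. The si-WT arrays overlapped siCtrl, the si-mut arrays lay below both, and the si-both arrays lay below all the others. The change was -0.57 ± 0.14 after si-mut (adjusted p = 0.00739) and -1.95 ± 0.14 after si-both (adjusted p = 2.16e-07), a 3.87-fold lower level, and it ranked 25 from the lowest of the 14884 genes. KIF18A, which damps the swing of chromosomes at the spindle's middle, moved least, with 8.0, 8.24 and 8.20 after si-WT, 7.38, 7.55 and 7.58 after si-mut, 7.53, 7.48 and 7.11 after si-both, and 7.71, 7.78 and 7.81 in siCtrl cells. It changed by -0.26 ± 0.11 after si-mut (adjusted p = 0.105, called without the third si-both array and with only the groups compared) and -0.39 ± 0.11 after si-both (adjusted p = 0.0121, and not called without the third si-both array). The motors that build the bipolar spindle were lower after both siRNAs: KIF11 changed by -0.61 and -0.98, and KIF15, its backup, by -0.80 and -0.93 after si-mut and si-both. Those of the central spindle and cytokinesis changed by -0.64 and -1.0 (KIF23), -0.74 and -0.81 (KIF20A) and -0.53 and -0.80 (KIF20B). KIF2C, which takes microtubules apart at the centromere, changed by -0.45 and -0.75. KIF4A, a motor on chromosome arms, changed by -0.27 after si-mut (adjusted p = 0.165) and -0.56 after si-both (adjusted p = 0.00442). Its close copy KIF4B read -0.23 (adjusted p = 0.338) and -0.71 (adjusted p = 0.00253), and since probes of such copies can share signal, the values of KIF4A are uncertain.

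All 3 measured spindle microtubule proteins were lower after si-mut and after si-both, with medians of -0.52 and -1.15. PRC1, which bundles the antiparallel microtubules of the central spindle, stood at 9.39, 9.44 and 9.34 after si-WT, 8.57, 8.50 and 8.47 after si-mut, 7.96, 7.60 and 7.54 after si-both, and 9.04, 9.02 and 9.03 in siCtrl cells. No 2 groups overlapped. PRC1 changed by -0.52 ± 0.10 after si-mut (adjusted p = 0.00121) and -1.33 ± 0.10 after si-both (adjusted p = 2.49e-07), a 2.51-fold lower level. HMMR, a spindle assembly factor also known as a hyaluronan receptor, had 8.41, 8.46 and 8.56 after si-WT, 7.42, 7.53 and 7.43 after si-mut, 7.02, 7.06 and 6.83 after si-both, and 8.10, 8.24 and 8.02 in siCtrl cells. It changed by -0.66 ± 0.08 after si-mut (adjusted p = 6.24e-05) and -1.15 ± 0.08 after si-both (adjusted p = 2.83e-07), and its 4 groups were also apart. NUSAP1, which steadies microtubules around chromatin, moved least. It had 10.06, 10.02 and 10.18 after si-WT, 9.50, 9.44 and 9.41 after si-mut, 9.64, 9.66 and 9.51 after si-both, and 10.02, 9.95 and 9.88 in siCtrl cells. Its changes were -0.50 ± 0.07 after si-mut and -0.35 ± 0.07 after si-both (adjusted p = 0.000223 and 0.00237), and though every si-both array lay above every si-mut array, that difference of 0.15 ± 0.07 did not pass the test (adjusted p = 0.176).

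In the chromosomal passenger complex and the cytokinesis genes, 4 of 4 were lower after si-mut (median -0.50) and 3 of 4 after si-both (median -0.81). AURKB, the kinase of the complex, had 10.61, 10.69 and 10.50 after si-WT, 9.90, 9.87 and 9.82 after si-mut, 9.95, 9.45 and 9.37 after si-both, and 10.53, 10.36 and 10.44 in siCtrl cells. It changed by -0.58 ± 0.12 after si-mut (adjusted p = 0.00296) and -0.85 ± 0.12 after si-both (adjusted p = 9.98e-05), and the 2 knockdowns overlapped each other. CDCA8 (borealin), of the same complex, changed by -0.48 and -0.81. BIRC5 (survivin), also of that complex and known as an inhibitor of cell death, moved little: 8.68, 8.54 and 8.62 after si-WT, 8.28, 8.40 and 8.14 after si-mut, 8.53, 8.24 and 8.30 after si-both, and 8.54, 8.69 and 8.57 in siCtrl cells. Its change of -0.33 ± 0.09 after si-mut passed (adjusted p = 0.0195) but was lost without the third si-mut array or the second siCtrl array, and that of -0.24 ± 0.09 after si-both did not pass (adjusted p = 0.0647), though it did without the first si-both array, without dim genes, with a trended prior and with array weights. ECT2, the exchange factor that switches on RhoA for the cleavage furrow, had 9.57, 9.69 and 9.68 after si-WT, 8.70, 8.81 and 8.89 after si-mut, 8.64, 8.48 and 8.35 after si-both, and 9.26, 9.29 and 9.39 in siCtrl cells. Its 4 groups did not overlap, with changes of -0.52 ± 0.09 after si-mut (adjusted p = 0.000519) and -0.82 ± 0.09 after si-both (adjusted p = 5.99e-06).

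The genes of the anaphase-promoting complex and of cohesin release were the most mixed of the roles. Of these, 3 of 5 were lower after si-mut (median -0.27) and 3 of 5 after si-both (median -0.50). The shares of all genes called lower were 13.6% and 18.1%. CDC20, which activates the complex once the checkpoint is met, had 10.29, 10.26 and 10.12 after si-WT, 9.57, 9.54 and 9.38 after si-mut, 9.62, 9.25 and 8.91 after si-both, and 10.28, 10.16 and 10.09 in siCtrl cells. It changed by -0.68 ± 0.14 after si-mut (adjusted p = 0.00226) and -0.91 ± 0.14 after si-both (adjusted p = 0.000142). ESPL1 (separase), the protease that cuts cohesin, was the single member with positive changes after si-mut and si-both. It had 7.28, 7.27 and 7.17 after si-WT, 7.68, 7.49 and 7.24 after si-mut, 7.68, 7.40 and 7.41 after si-both, and 7.38, 7.11 and 7.21 in siCtrl cells. The si-both arrays lay above those of siCtrl by little, and the differences of 0.24 ± 0.11 after si-mut (adjusted p = 0.166) and 0.26 ± 0.11 after si-both (adjusted p = 0.0975) did not pass the test. Without the third si-mut array the si-mut difference did. The si-both difference did with the replicate number as a block and with another quantile normalization. Its promoter window holds CCAAT and TTTGAA like those printed above. PTTG1 (securin), which holds separase inactive, changed the other way, by -0.39 ± 0.08 after si-mut (adjusted p = 0.0021) and -0.66 ± 0.08 after si-both (adjusted p = 1.99e-05). Its close copy PTTG2 read -0.27 after si-both (adjusted p = 0.0699), and the values of PTTG1 are uncertain to the extent that probes share signal between them. CDCA5 (sororin), which keeps cohesin on the chromosomes, had 7.19, 7.0 and 6.98 after si-WT, 6.69, 6.82 and 6.81 after si-mut, 7.05, 6.91 and 6.77 after si-both, and 7.13, 7.01 and 6.97 in siCtrl cells. It changed by -0.27 ± 0.09 after si-mut (adjusted p = 0.042, lost on leaving out any of 7 arrays) and by -0.13 ± 0.09 after si-both (adjusted p = 0.318). CDCA3, which helps the cell enter mitosis, changed by -0.15 after si-mut (adjusted p = 0.17) and -0.50 after si-both (adjusted p = 0.000133).

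All 4 chromosome structure genes were lower after si-mut (median -0.46) and after si-both (median -0.85). SMC2, an arm of condensin, had 8.79, 8.78 and 8.70 after si-WT, 8.32, 8.20 and 8.13 after si-mut, 7.94, 7.42 and 7.66 after si-both, and 8.84, 8.96 and 8.71 in siCtrl cells. It changed by -0.62 ± 0.11 after si-mut (adjusted p = 0.00105) and -1.16 ± 0.11 after si-both (adjusted p = 3.32e-06). SMC4, the other arm of the same ring, moved less: 8.98, 9.06 and 9.03 after si-WT, 8.50, 8.34 and 8.51 after si-mut, 8.49, 8.41 and 8.43 after si-both, and 8.68, 8.84 and 8.81 in siCtrl cells. Its changes were -0.32 ± 0.07 after si-mut (adjusted p = 0.00509) and -0.33 ± 0.07 after si-both (adjusted p = 0.00298), and si-both differed from si-mut by -0.01 ± 0.07 for SMC4 (adjusted p = 0.955), beside -0.54 ± 0.11 for SMC2 (adjusted p = 0.00359). TOP2A, the topoisomerase that untangles sister chromatids, had 11.30, 11.32 and 11.34 after si-WT, 10.59, 10.57 and 10.56 after si-mut, 10.34, 10.10 and 9.88 after si-both, and 11.18, 11.12 and 11.14 in siCtrl cells. It changed by -0.57 ± 0.10 after si-mut (adjusted p = 0.000492) and by -1.04 ± 0.10 after si-both (adjusted p = 1.87e-06), in 4 groups that did not overlap. MKI67, the antigen used to count cycling cells, changed by -0.35 and -0.66.

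**Figure D4:**
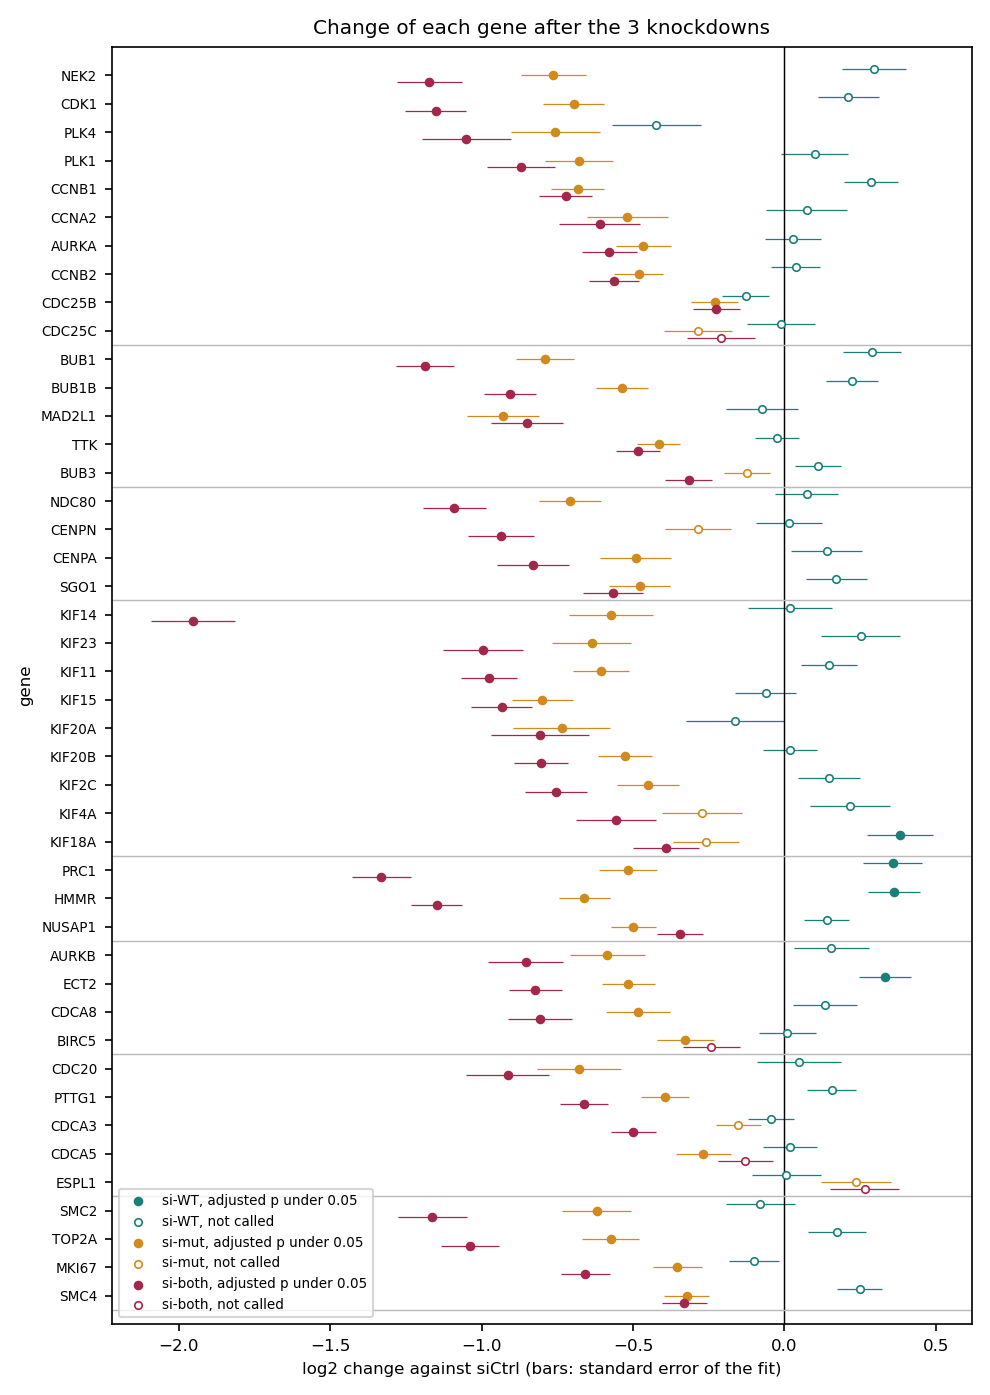
Log2 change of each of the 44 members against siCtrl in si-WT, si-mut and si-both cells, with standard errors of the fit and members grouped by role; filled points passed the test. The si-WT points gather near 0, most si-mut and si-both points lie below it, and KIF14 after si-both lies lowest at -1.95.

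After si-WT the members leaned slightly upward, with 34 of the 44 changes positive, beside 7648 of all 14884 genes. The 4 that passed the test are genes of the spindle or of cytokinesis. KIF18A rose by 0.38 ± 0.11 (adjusted p = 0.0407), HMMR by 0.36 ± 0.08 (adjusted p = 0.015), PRC1 by 0.36 ± 0.10 (adjusted p = 0.0316) and ECT2 by 0.33 ± 0.09 (adjusted p = 0.0256), at most a 1.3-fold higher level. All 3 si-WT arrays lay above all 3 siCtrl arrays in each of them, which adds little because these members were picked by the test. The same held for members that were not called, such as CDK1 and BUB1. The calls depended on single arrays: 0 of the 44 were called without the third si-WT array or without the first siCtrl array, 1 without the second si-WT array or the second or the third siCtrl array, and 7 without the first si-both array, which enters through the shared spread. The share called, 4 of 44, is not far from the 5.2% of all genes called higher.

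Some members were lower after si-both than after si-mut. How far each siRNA lowered its target is not analysed here, so unequal knockdown and the loss of both forms cannot be told apart. The si-both and si-mut arrays overlapped for LGR5, NKD1, AXIN2 and MYC. For each of these genes the highest of these arrays was the first si-both array. The lowest was a si-mut array for LGR5, NKD1 and AXIN2, and the third si-both array for MYC. The 6 largest si-both minus si-mut differences among the 19 called were those of KIF14 at -1.38 ± 0.14 (adjusted p = 1.27e-05), PRC1 at -0.81 ± 0.10 (adjusted p = 4.84e-05), CENPN at -0.65 ± 0.11 (adjusted p = 0.000728), SMC2 at -0.54 ± 0.11 (adjusted p = 0.00359), HMMR at -0.49 ± 0.08 (adjusted p = 0.000976) and TOP2A at -0.46 ± 0.10 (adjusted p = 0.00307). In each of these the si-both arrays all lay below the si-mut arrays, which is no further support, since these 6 were picked by the size of the difference. The differences of the cyclins did not pass the test: CCNB1 differed by -0.04 ± 0.09 (adjusted p = 0.814), CCNA2 by -0.09 ± 0.13 (adjusted p = 0.701) and CCNB2 by -0.08 ± 0.08 (adjusted p = 0.554). Without the third si-both array 11 were called, and without the first 27. A fit of these 2 groups alone called 11, all of them among the 19.

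The departure from additivity asks whether si-both differs from the sum of the si-WT and si-mut changes. It was negative in 35 of the 44 members, with a median of -0.31, beside 7919 of all 14884 genes, with a median of -0.02. Of the 44, 16 passed the test downward and 0 upward (8.79% of all genes lower, 7.6% higher). The largest departures were those of KIF14 at -1.40 ± 0.20 (adjusted p = 0.000333), PRC1 at -1.17 ± 0.14 (adjusted p = 8.62e-05), HMMR at -0.85 ± 0.12 (adjusted p = 0.000347), NEK2 at -0.70 ± 0.15 (adjusted p = 0.00577), BUB1 at -0.68 ± 0.14 (adjusted p = 0.00359) and CDK1 at -0.67 ± 0.14 (adjusted p = 0.00584). In KIF14 the si-WT change was 0.02 and the si-mut change -0.57, beside -1.95 after si-both. In PRC1 the changes were 0.36, -0.52 and -1.33, so that the rise after si-WT adds to the departure. Departures near 0 that did not pass the test included TTK at -0.04 ± 0.10 (adjusted p = 0.84) and KIF15 at -0.07 ± 0.14 (adjusted p = 0.811). Of the 16, 12 were kept whichever array was left out, and KIF18A, KIF23, KIF2C and NDC80 were not. Without the first si-both array 27 were called, among them the 16. A departure cannot be told apart from unequal knockdown by the siRNAs, as their target is not analysed here.

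**Figure D5:**
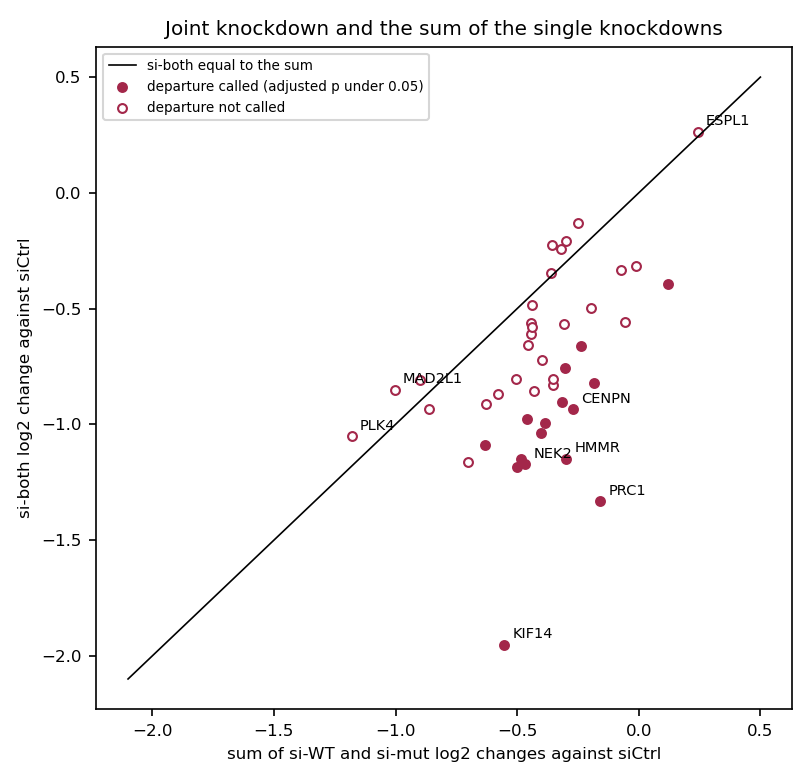
Measured log2 change of each of the 44 members after si-both against the sum of its changes after si-WT and si-mut, with a line where both are equal; filled points are the 16 members whose departure passed the test. KIF14 and PRC1 lie furthest below the line.

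Lists of other genes of the same processes differed in how many of their genes were lower, beside the 13.6% of all genes lower after si-mut and the 18.1% after si-both. Of 24 other kinetochore and centromere genes, 14 were lower and 1 higher after si-mut, and 17 lower and 0 higher after si-both. CENPH, which helps build the inner kinetochore, changed by -1.01 after si-mut and -1.43 after si-both, CENPK, its partner, by -0.62 and -0.99, and ZWINT, a link to the checkpoint, by -0.53 and -0.99. Of 26 other spindle, centrosome and cytokinesis genes, 18 were lower and 0 higher after si-mut, and 25 lower and 0 higher after si-both. DEPDC1B changed by -0.76 and -1.24, CEP152, a scaffold for new centrioles, by -0.66 and -1.09, and the kinase MELK by -0.55 and -0.87. Of the 17 subunits and partners of the anaphase-promoting complex, many of which are made all through the cycle, 4 were lower and 1 higher after si-mut, and 5 lower and 2 higher after si-both. The lower ones included FBXO5 (EMI1), its inhibitor, at -0.53 and -0.84, the ubiquitin-conjugating partner UBE2S at -0.41 and -0.71, and the subunit ANAPC1 at -0.78 and -0.70. The higher ones were ANAPC13, at 0.27 and 0.43, and CDC16, at 0.21 (not called) and 0.28. Of 8 other cohesin and condensin genes, 3 were lower and 0 higher after each of these siRNAs, with SMC3 at -0.49 and -0.68, STAG2 at -0.64 and -0.41, and SMC1A at -0.17 (not called) and -0.47.

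The regulators upstream of these genes were also lower in part. After si-mut 13.6% of all genes were lower and 12% higher, and after si-both 18.1% lower and 15.5% higher. Of 18 transcription factors of the cell cycle, 10 were lower and 1 higher after si-mut, and 12 lower and 1 higher after si-both. FOXM1, an activator of late cell cycle genes, changed by -0.37 after si-mut and -0.73 after si-both, and MYBL2 (B-MYB), which joins the MuvB complex, by -0.58 and -0.64. LIN9, a core subunit of that complex, changed by -0.28 after si-WT and -0.59 after both other siRNAs, while LIN37, another subunit, changed by -0.34 after si-WT and rose by 0.35 and 0.29 after si-mut and si-both. E2F1, E2F7 and E2F8, factors of the G1 to S step, changed by -0.35 (not called), -1.11 and -0.39 (not called) after si-mut and by -0.84, -1.0 and -0.87 after si-both. Of 15 cyclins, kinases and inhibitors outside mitosis, 11 were lower after si-mut, 10 after si-both and 0 higher after either. After si-WT 4 of the 15 were higher, where 5.2% of all genes were. CDK6 changed by -1.56 and -1.39, CDC25A by -0.45 and -1.16, and CCNF by -0.48 and -0.91. CCND1 (cyclin D1), known as a target of β-catenin, rose by 0.43 after si-WT and changed by -0.84 and -0.66 after si-mut and si-both. CDKN1A and CDKN1B are not analysed here. TTTGAA was in the promoter windows of 8 of 18 other kinetochore genes, 13 of 23 other spindle genes, 3 of 17 genes of the anaphase-promoting complex, 1 of 7 other cohesin genes, 3 of 15 transcription factors and 4 of 10 cyclins, kinases and inhibitors, beside 11.8% of all windows.

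Hepatocyte markers moved the opposite way. The mean level of the 7 measured ones was 11.85 to 11.97 on the si-WT arrays, 12.61 to 12.67 on the si-mut arrays, 12.60 to 12.63 on the si-both arrays and 12.01 to 12.08 on the siCtrl arrays. Of the 7, 5 were higher after si-mut and 6 after si-both, and 0 were lower, where 12% and 15.5% of all genes were higher. After si-WT 1 was lower (4.97% of all genes), and against si-mut 1 was lower after si-both (11.6% of all genes). TTR changed by 1.45 after si-mut and 0.91 after si-both, and FGB by 1.11 and 1.27. Albumin (ALB) rose by 0.38 and 0.46. The mean of the 3 leukocyte markers was 9.47 to 9.57 on the si-WT arrays, 9.37 to 9.56 on the si-mut arrays, 9.23 to 9.52 on the si-both arrays and 9.38 to 9.43 on the siCtrl arrays, and that of the other lists stayed below 5.2. Its genes went both ways: LYZ changed by -0.39 after si-mut and -1.13 after si-both, CD14 by 0.17 (not called) and 0.70, and CD68 by 0.48 and 0.28 (not called). The part of these markers in the mitosis results was not tested.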

How the data were processed

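RNA of 12 HepG2 samples was measured on Affymetrix arrays. The deposited log2 intensities were made by the authors with RMA (Affymetrix Expression Console, version 1.1), as the submitters' processing notes have it. Because RMA sets all arrays to 1 distribution, it would hide a shift of most genes. No source used here gives the library files or annotation build, and scanner files were not used. Of 53617 probe sets 16098 had 1 gene symbol and 37519 were not listed. For 779 genes with over 1 probe set the one with the highest mean was used, which left 14884 genes. Groups came from the sample titles. One limma model (version 3.58.1, R 4.3.3) held the 4 group means of all 12 arrays, with 8 residual degrees of freedom, two-sided tests and Benjamini-Hochberg adjustment over all genes within each of 7 comparisons; no filter on dim genes was used.

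The members and all lists were chosen with earlier results of these data known. Values of every array were given by rule for the member of largest and of smallest si-both change in each role, for members called after si-WT, for the 6 largest departures and si-both minus si-mut differences, and for 6 members not called in both si-mut and si-both; MAD2L1 was added after its values were seen. Of each other list, up to 3 called genes in each direction were named, with FOXM1, MYBL2, E2F1, LIN9 and CCND1. LGR5, NKD1, AXIN2 and MYC were chosen as known targets. Same-numbered arrays of si-WT and si-both deviated together (correlations 0.115, 0.155 and 0.134); the labels state no pairing, and no other pair of groups had all 3 above 0.1. The fit was tested on simulated data. The alternatives were another quantile normalization, median centring, a filter at the 40th percentile of level, averaging a gene's probe sets, trended and robust priors, only the groups compared, the replicate block, array weights and each array left out; the first si-mut and si-both arrays left out together was added after the data were seen. Promoters were read from RefSeq windows in Python 3.11.15, and figures drawn with matplotlib 3.10.9.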

Additional observations from a re-analysis of the deposited data

Results flagged for a closer look

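In 16 of the 44 members the effect of si-both differed from the sum of the si-WT and si-mut effects (limma, adjusted over 14884 genes). All 16 departures were negative. Of all genes, 8.79% were called lower and 7.6% higher by the same test. The departures (log2) were -1.399 for KIF14, -1.17 for PRC1, -0.8485 for HMMR, -0.7049 for NEK2, -0.6837 for BUB1 and -0.6671 for CDK1. They were -0.6643 for CENPN, -0.6384 for ECT2, -0.637 for TOP2A, -0.6112 for KIF23 and -0.592 for BUB1B. The smallest were -0.5157 for KIF11, -0.5132 for KIF18A, -0.4555 for NDC80, -0.4521 for KIF2C and -0.4233 for PTTG1. The calls of KIF18A, KIF23, KIF2C and NDC80 were lost when any of several single arrays was left out. All 16 were kept without the first si-both array, which lay nearest to siCtrl, and 27 were then called.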

How the results depend on the processing

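Over 107 single results and 22 alternatives, 2260 values kept their direction and side of the threshold, 72 lost the call, 22 gained one and 0 reversed. Members called after si-both stayed between 38 and 42 and after si-mut between 34 and 40. The median si-both change ran from -0.93 (-0.9262 without si-both replicate 1, and likewise with both first arrays left out) to -0.69 (-0.691 without si-both replicate 3). Calls after si-WT, 4 as reported, were 7 without dim genes, 7 with a trended prior, 7 with only the groups compared, 9 with array weights, 7 with both first arrays left out and 0 to 7 with single arrays left out. Calls of si-both against si-mut, 19 as reported, were 11 with only the groups compared and 11 to 27 with single arrays left out. Departures from additivity, 16 as reported, were 12 to 27 with single arrays left out. With the replicate block 5 members were called after si-WT, 38 after si-mut, 41 after si-both and 17 for additivity, and no call reported here was lost. The cause of these moves was not tested. The si-both arrays limit the precision most, with estimated weights of 0.635 to 0.707, beside 1.02 to 1.84 in siCtrl. With 3 arrays a group, the size that could be called differed by gene. After si-WT, PLK4 at -0.42 ± 0.15 (SE) was not called, while ECT2 at 0.33 ± 0.09 was. The 11 listed genes that are not analysed here carry no values.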

Other observations

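Some cell cycle genes outside the 44 members did not follow them; these were chosen after their values were seen. CENPI, an inner kinetochore subunit, rose by 0.67 after si-mut and stood at -0.30 after si-both (not called), with a departure from additivity of -0.77. RBBP4, a histone chaperone shared by the MuvB complex and other chromatin complexes, changed by -0.54 after si-mut and by -0.02 after si-both, with a departure of 0.59. LIN54, the subunit of that complex that binds DNA, changed by -0.50 after si-WT, 0.20 after si-mut (not called) and -0.52 after si-both. WEE1, the kinase that holds CDK1 inactive, rose by 0.27 after si-WT and changed by -0.41 after si-mut and -0.06 after si-both (not called).

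Departures from additivity among the 26 other spindle, centrosome and cytokinesis genes were called lower in 7 and higher in 1, beside 8.79% of all genes lower and 7.6% higher. The higher one was CEP135, a centriole scaffold, which changed by -0.34 after si-WT, -0.64 after si-mut and -0.39 after si-both, with a departure of 0.59. The centriole genes STIL and CEP192 departed by -0.46 and -0.44. STAG2, a cohesin subunit, changed by -0.29, -0.64 and -0.41, with a departure of 0.51. The G1 cyclin genes CCNE1 and CCNE2 rose by 0.34 and 0.48 after si-WT and changed by -0.68 and -0.82 after si-mut.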
